A study of Rattus norvegicus with 18 samples.

Results

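Transcripts of the rat oculomotor nucleus at 30 months were compared with those at 18 months, the later of the 2 age steps of the series. All arrays whose title names the oculomotor nucleus at either age were taken, 3 at 30 months and 3 at 18 months, 6 of the 18 arrays in the series. The remaining 12 arrays, 3 each from the oculomotor nucleus at 6 months and from the spinal cord at 6, 18 and 30 months, served to estimate the spread and to ask whether a difference was shared. Each array is an Affymetrix RA230 chip that carried RNA combined from 4 animals, so p-values measure the spread between pools and not between animals. The labels of some samples give F344BN rats, a hybrid of the Fischer 344 and Brown Norway strains bred for studies of ageing. The strain is not stated for the other samples. No treatment or allele is named for any group, and the sex of the animals is not known here. The groups differ, as far as the labels say, in age alone.

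The oculomotor nucleus is a small group of midbrain motor neurons that drive most of the muscles that move the eye. It lies beside the aqueduct, close to dopamine neurons of the ventral midbrain and serotonin neurons of the raphe, and a dissection of it holds glia, vessels and membranes as well as neurons. The gene that passed the test between the ages belongs to the major histocompatibility complex (MHC) class II pathway, which in the rat is encoded by the RT1-B and RT1-D loci. Alpha and beta chains pair in the endoplasmic reticulum around the invariant chain, encoded by Cd74. The DM proteins later exchange the remnant of that chain for a peptide, and the loaded molecule is shown to CD4 T cells. In the brain, class II is carried mainly by microglia and by macrophages at the borders, at low levels in young animals. The genes are switched on together by the co-activator CIITA, which docks on proteins bound to conserved boxes, named X and Y among others, just upstream of each gene.

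The promoters of the 4 chain genes with the largest differences are shown because RT1-Da passed the test, the other 3 had higher signals on all 30-month arrays without passing it, and such boxes are known for the family. The sequences are from RefSeq on the GRCr8 assembly, run 5′ to 3′ along the strand of the gene, and cover the 250 bases before the annotated start. Capitals mark matches, on either strand, to a core of the X box, ACNGATG, and to a Y-box pattern, CTGATTGG, which do not overlap each other. RT1-Da lies at chr20:4515165-4515414 on the plus strand, RT1-Db1 at chr20:4560163-4560412 on the minus strand, RT1-Bb at chr20:4604119-4604368 on the minus strand and RT1-Ba at chr20:4576807-4577056 on the plus strand.
RT1-Da: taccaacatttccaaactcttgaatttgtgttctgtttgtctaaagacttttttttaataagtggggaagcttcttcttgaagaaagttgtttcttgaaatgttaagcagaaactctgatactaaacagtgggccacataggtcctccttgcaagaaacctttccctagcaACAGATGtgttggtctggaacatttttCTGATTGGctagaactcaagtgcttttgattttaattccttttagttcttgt
RT1-Db1: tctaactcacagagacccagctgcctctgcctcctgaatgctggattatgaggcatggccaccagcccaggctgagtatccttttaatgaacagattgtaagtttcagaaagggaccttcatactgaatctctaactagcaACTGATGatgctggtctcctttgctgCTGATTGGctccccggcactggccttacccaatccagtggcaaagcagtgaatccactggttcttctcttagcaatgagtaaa
RT1-Bb: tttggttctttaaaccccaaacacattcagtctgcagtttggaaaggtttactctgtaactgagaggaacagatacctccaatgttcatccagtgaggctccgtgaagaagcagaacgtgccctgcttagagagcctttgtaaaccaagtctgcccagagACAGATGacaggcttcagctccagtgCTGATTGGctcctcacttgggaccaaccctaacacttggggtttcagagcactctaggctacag
RT1-Ba: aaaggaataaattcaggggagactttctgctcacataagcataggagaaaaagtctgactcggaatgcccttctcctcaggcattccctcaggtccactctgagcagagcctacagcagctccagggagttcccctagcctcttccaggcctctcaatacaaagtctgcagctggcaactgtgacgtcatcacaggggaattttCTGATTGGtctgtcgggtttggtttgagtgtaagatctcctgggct
RT1-Da has the X core starting 79 bases and the Y pattern 52 bases before the start, RT1-Db1 has them at 109 and 83 bases, and RT1-Bb at 90 and 64 bases. RT1-Ba has the Y pattern alone, at 46 bases. In the same window RT1-DMa has the X core alone, at 94 bases, and Cd74 has neither. Only these exact letters were searched, so a promoter without a match may still hold a box spelled otherwise. Of 33469 RefSeq promoters of this length, 2860 (8.55%) hold the X core, 1068 (3.19%) the Y pattern and 75 (0.224%) both. The patterns were written with the sequences in view, so these shares describe the letters and test nothing.

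The 6 arrays had similar brightness but unequal scatter. Median signals lay between 252 and 275, and between 18.0% and 20.7% of probe sets lay at or under the floor of 66.4, the level below which signals were not distinguished. Pairs of arrays at 18 months differed with an SD of 0.23 to 0.25 in log2 signal, and pairs at 30 months with 0.33 to 0.39. On the first principal component of the deviations from the group means, which held 27.1% of their variance, the 30-month replicates 2 and 3 scored -14.2 and 16.6, on opposite sides, while the other 4 of these arrays scored between -2.34 and 1.58. Both replicates stand apart from the rest, and the change without them is given beside some of the named genes. The hexokinase control probes, whose 3′ to 5′ ratio tracks RNA integrity, gave 1.75, 1.78 and 1.89 at 18 months and 1.76, 1.85 and 1.91 at 30 months. Those of beta-actin gave 1.22, 1.49 and 1.25 at 18 months and 1.31, 1.35 and 1.54 at 30 months. Those of GAPDH gave 1.02, 1.02 and 1.01 at 18 months and 1.05, 1.00 and 1.09 at 30 months. The ages overlapped for each control, but 30-month replicate 3 had the highest ratio of the 6 arrays for every control.

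The markers of the labelled tissue were mixed. Chat, which makes acetylcholine, had signals of 106, 96.8 and 139 at 18 months and 135, 179 and 114 at 30 months, not far above the floor. Slc18a3, the vesicular acetylcholine transporter, had 177, 147 and 200 at 18 months against 192, 135 and 166 at 30 months. Isl1, a motor neuron transcription factor, was under the floor on 4 of the 6 arrays. Phox2a, the factor needed to form this nucleus, was too dim to be tested. Of 17 matched members of the motor neuron and cholinergic list, 12 passed the filter, and some were brighter. Ret, by its brightest probe set, had 669, 740 and 673 at 18 months and 736, 807 and 1108 at 30 months. Gfra1, also by its brightest probe set, had 384, 406 and 398 at 18 months and 391, 490 and 426 at 30 months. Other probe sets of these genes disagreed on direction. That of Gfra1 gave a change of -0.35 against 0.13 for the brightest, and those of Ret gave 0.13 and -0.29 against 0.33. Neighbouring neurons gave bright signals: Th, the rate-limiting enzyme of dopamine synthesis, had 2237, 2526 and 2701 at 18 months and 2166, 1882 and 2828 at 30 months. The serotonin transporter Slc6a4 had 1528, 1229 and 1385 at 18 months and 1570, 1441 and 1282 at 30 months. All of these overlapped between the ages, so the samples carried RNA of neighbouring cell groups at both. In bulk tissue, fewer cells of a type and less RNA per cell cannot be told apart.

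RT1-Da, the alpha chain of the D class II molecule, rose from 18 to 30 months and was the only probe set to do so past the test. Its signals were 458, 411 and 418 at 18 months and 1424, 823 and 929 at 30 months. Every 30-month array lay above every 18-month array, and replicate 1 was the highest. The change was 1.26 on the log2 scale (95% interval 0.86 to 1.67, SE 0.19), 2.40-fold, with an adjusted p of 0.0313 from limma with Benjamini-Hochberg adjustment over 9482 probe sets. This single call is 0.0105% of the probe sets tested. The call did not hold in all settings. It was lost with median centring, a pseudocount, no filter, no mean-variance trend and the replicate block. It was also lost with only the oculomotor arrays or only the arrays compared in the fit. Over these 7 processing alternatives the limma adjusted p was between 0.0507 and 0.311, and the call held under 5 others. The values as deposited, 1 of these 5, nearly repeat the main fit, since those arrays already shared a trimmed mean near 500.1. Leaving out any of the 18-month replicates, or the 30-month replicate 1 or 3, gave adjusted p-values between 0.0745 and 0.303, with log2 changes between 1.03 and 1.42 over all single omissions. Without both 30-month arrays that stand apart the change was 1.73 (adjusted p = 0.0133), resting then on replicate 1, the highest.

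No probe set passed the test as lower at 30 months. At an unadjusted p under 0.05, 224 probe sets were higher (2.36%) and 223 lower (2.35%), together 4.71% of those tested. With median centring of each array the higher ones were 169 of 428, against 224 of 447 here. The median change over all probe sets was 0.0039 on the log2 scale, and 51.2% had a change above 0. Signals did not overlap between the ages in 428 probe sets that were higher (4.51%) and 407 that were lower (4.29%), in all 8.81%.

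Of the MHC class II list, 8 of 10 members were matched to a probe set and 7 passed the filter on dim probe sets. All 7 had a positive change, with a median of 0.70 on the log2 scale against 0.00 for all probe sets. Of the 7, 5 did not overlap between the ages, against 4.51% of all probe sets that were higher without overlap, and the same 5 had an unadjusted p under 0.05, against 2.36%. Leaving out 1 array gave medians between 0.62 and 0.85, and leaving out both that stand apart gave 1.08. Of these 5, RT1-Da alone passed after adjustment. Cd74, the invariant chain, had 731, 596 and 669 at 18 months and 1909, 1183 and 1270 at 30 months, 2.14-fold, with a log2 change of 1.10 (0.64 to 1.56) and an adjusted p of 0.41. RT1-Db1, the beta chain partner of RT1-Da, had 129, 149 and 154 at 18 months and 333, 232 and 273 at 30 months, 1.92-fold (log2 0.94, 0.41 to 1.48, adjusted p = 0.976). Both thus had all 30-month arrays above all 18-month arrays, and replicate 1 highest, as for RT1-Da.

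The chains of the B molecule had smaller differences. RT1-Ba, its alpha chain, had 385, 494 and 444 at 18 months and 783, 802 and 570 at 30 months (log2 change 0.70, 0.15 to 1.24, adjusted p = 0.976). RT1-Bb, its beta chain, had 229, 222 and 235 at 18 months and 482, 300.3 and 342 at 30 months (0.68, 0.10 to 1.27, adjusted p = 0.976), or a change of 1.08 without both arrays that stand apart. Further probe sets for RT1-Ba, RT1-Bb and RT1-Db1 were too dim to be tested. The peptide exchange genes had changes nearer 0. RT1-DMa had 456, 420 and 423 at 18 months and 511, 417 and 439 at 30 months, a change of 0.07, and RT1-DMb had 506, 515 and 539 against 706, 537 and 520, a change of 0.16. Both overlapped between the ages, and RT1-DMb was high on replicate 1 alone. Ciita, the master co-activator, was below the filter, with 162, 196 and 213 at 18 months and 170, 213 and 140 at 30 months. The RT1-B and RT1-D genes are polymorphic and close in sequence, so a probe set may also report a related copy.

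**Figure D1:**
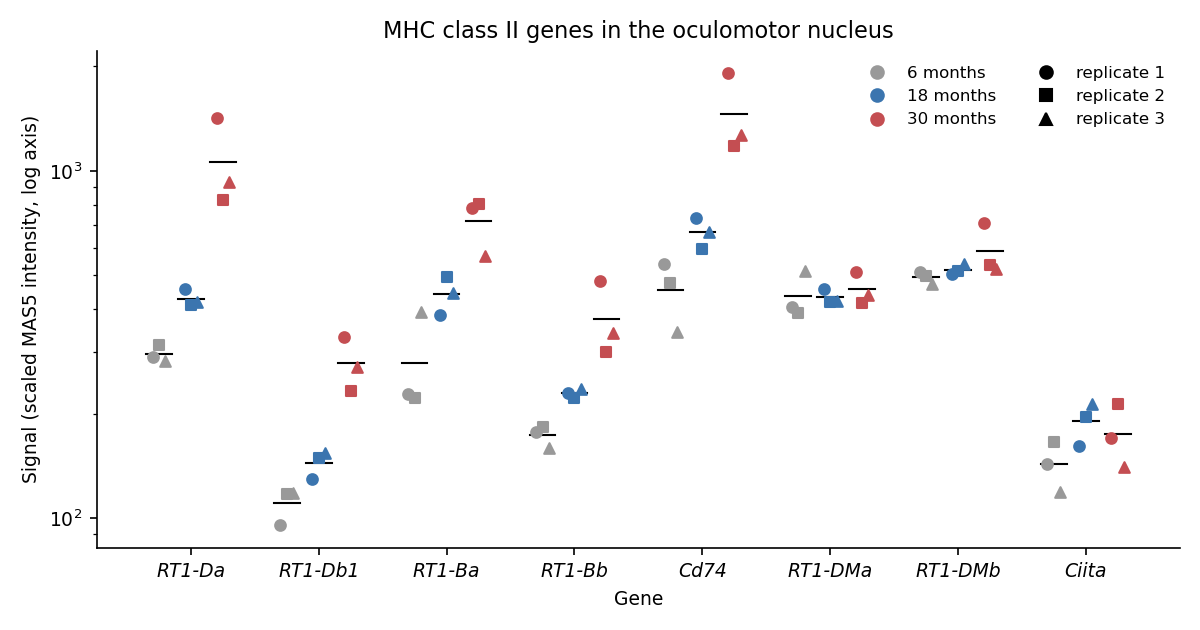
Signal on each array (vertical log axis, scaled MAS5 intensity) of the 8 matched MHC class II genes in the oculomotor nucleus at 6, 18 and 30 months; shapes mark the replicates and bars the mean of 3 arrays. The 30-month arrays of RT1-Da, RT1-Db1, RT1-Ba, RT1-Bb and Cd74 lie above the 18-month arrays, those of RT1-DMa, RT1-DMb and Ciita overlap them.

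The summed signal of the class II list was 3002 to 3096 on the 18-month arrays and 4484 to 6320 on the 30-month arrays, with no overlap. Lymphocyte transcripts were dim: Cd3e and Cd8a of T cells and Cd79b of B cells were under the floor of 66.4 on all 6 arrays. Cd4, which rat microglia and macrophages also carry, had 244, 221 and 222 at 18 months and 261, 333 and 248 at 30 months, a change of 0.28 that did not pass (adjusted p = 0.976). Haemoglobin beta had 5445, 5095 and 8811 at 18 months and 8241, 3965 and 7746 at 30 months, so blood content varied between arrays of both ages.

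Most microglia markers had a small positive change, and none passed the test. Of 24 written, 19 were matched and 16 tested. Of the 16, 15 had a positive change, and the median was 0.18. An unadjusted p under 0.05 was reached by 1, against 2.36% of all probe sets. Without overlap, 4 were higher, against 4.51% of all probe sets. Fcgr2b, an inhibitory Fc receptor, had 130, 147 and 165 at 18 months and 253, 199 and 212 at 30 months (log2 change 0.59, adjusted p = 0.976). Mpeg1, a pore-forming protein of macrophages, had 1004, 1147 and 1066 at 18 months and 1277, 1265 and 1380 at 30 months, without overlap but with a change of 0.29, while its other probe set overlapped, with 0.11. Csf1r, the receptor that keeps microglia alive, had 1198, 986 and 969 at 18 months and 1349, 1167 and 1252 at 30 months, and P2ry12, a receptor of resting microglia, had 609, 679 and 649 at 18 months and 830, 654 and 869 at 30 months. Both overlapped between the ages, with changes of 0.26 and 0.27. The summed signal of the microglia list was 13028 to 14331 at 18 months and 14044 to 16605 at 30 months, so it overlapped, and its part in the class II difference was not tested.

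Of 7 complement genes tested, 6 were positive with a median of 0.16, and none passed after adjustment. The median was 0.095 without 30-month replicate 1 and 0.29 without 30-month replicate 2. An unadjusted p under 0.05 was reached by 2, both higher, in a background of 2.36% of all probe sets. C3, the central protein of the cascade, had 857, 826 and 883 at 18 months and 1199, 1099 and 1176 at 30 months. These arrays did not overlap, and the change of 0.44 (0.16 to 0.71), 1.35-fold, had an adjusted p of 0.976. C1qa, a chain of the initiating C1q made by microglia, had 1018, 1180.5 and 1199.5 at 18 months and 1600, 1276 and 1647 at 30 months (0.41, adjusted p = 0.976). Serping1, the inhibitor of C1, had a change of 0.25 and Cd59b, which blocks the terminal pore, of 0.16, or 0.29 without both arrays that stand apart; neither passed.

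The phagocytosis and lysosome list had a median closer to that of all probe sets. Of 21 members tested, 14 were positive with a median of 0.07, which leaving out 1 array moved between 0.018 and 0.13. An unadjusted p under 0.05 was reached by 2, both higher (background 2.36%). Without overlap, 4 were higher, against 4.51% of all probe sets. Gpnmb, a glycoprotein of lipid-laden phagocytes, had 307, 274 and 254 at 18 months and 478, 369 and 464 at 30 months, a change of 0.64 (adjusted p = 0.976). Ctsz, a lysosomal cysteine protease, had 305, 260 and 193 at 18 months and 318, 381 and 358 at 30 months, a change of 0.50 (adjusted p = 0.976). Npc2, which carries cholesterol out of the lysosome, and Mertk, a receptor for dying cells, had changes of 0.23 and 0.38, the latter 0.79 without both arrays that stand apart. Both missed an unadjusted p of 0.05, and the second probe set of Mertk was too dim to test.

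Interferon-response and MHC class I genes had medians near that of all probe sets. Of 11 interferon-response genes tested, 8 were positive with a median of 0.03 (0.0021 to 0.11 on leaving out 1 array) and 1 had an unadjusted p under 0.05: Irf8, a factor that also specifies microglia, with 135, 161 and 140 at 18 months and 206, 197 and 169 at 30 months (0.39, adjusted p = 0.976). Ifi27 had a change of -0.12 and Parp9 of 0.18, and both overlapped; without both arrays that stand apart these were 0.020 and 0.053. Of 11 class I and peptide-loading genes, 9 were positive with a median of 0.06 (-0.00027 to 0.17 on leaving out 1 array), and 0 reached an unadjusted p under 0.05 in limma. Psme2, the member of that list with the smallest p, had a negative change, -0.20. Psmb8, a subunit of the immunoproteasome, had 147, 165 and 194 at 18 months and 206, 201 and 202 at 30 months, a change of 0.27. RT1-S3, a nonclassical class I gene, was lower by 1 of its probe sets, from 373, 410 and 415.5 to 230, 284 and 290 (-0.58, adjusted p = 0.698). Its other probe sets gave changes of -0.07, 0.10 and -0.34, so they disagreed, and class I copies are alike enough that their signals cannot be assigned with certainty.

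**Figure D2:**
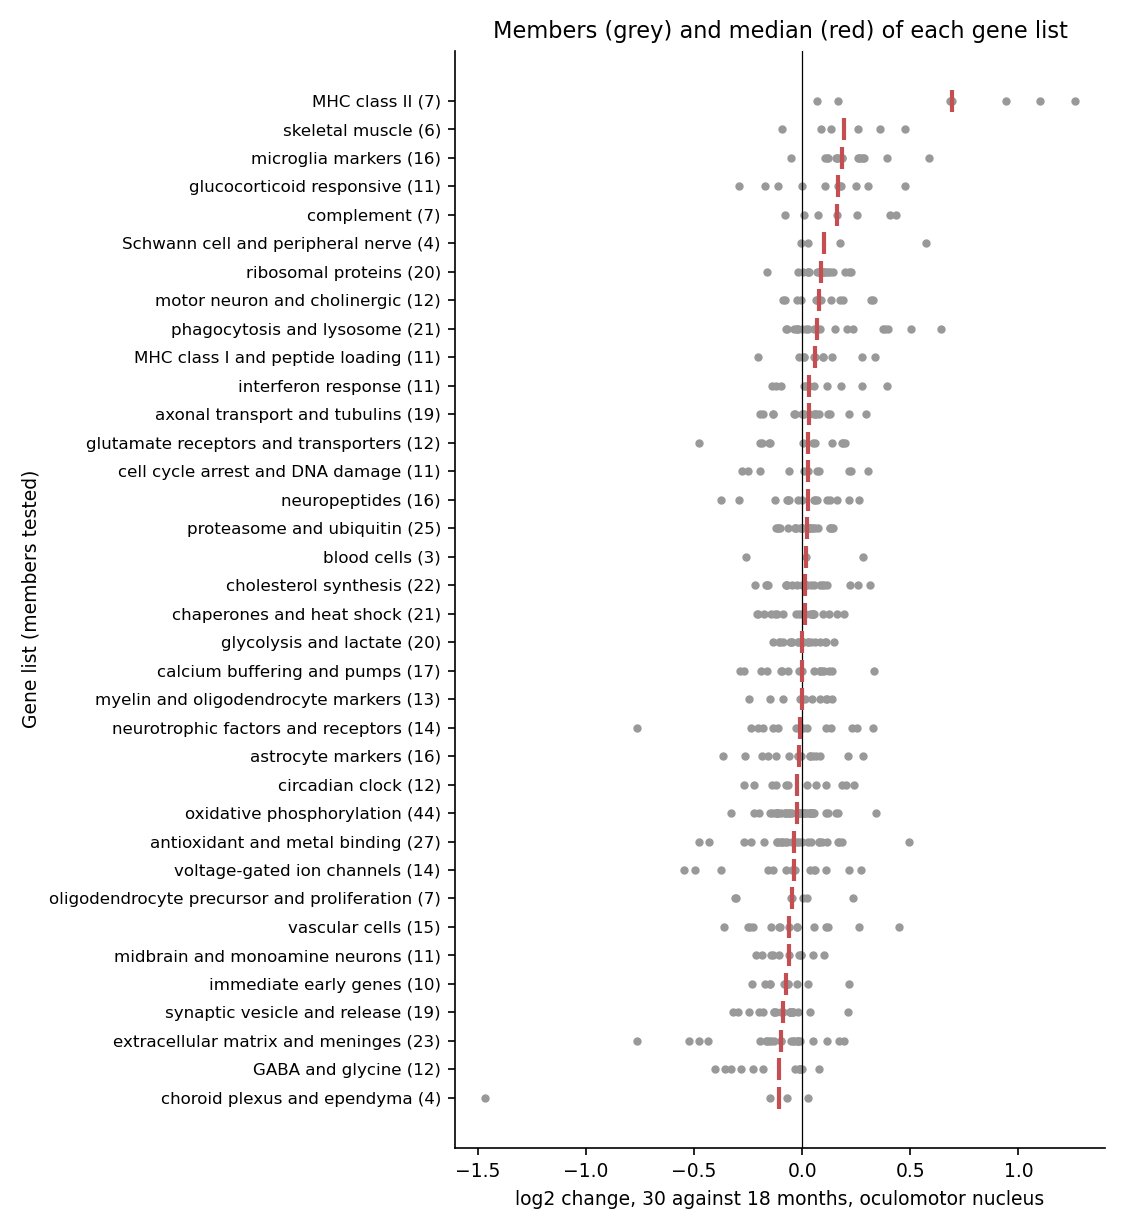
Log2 change from 18 to 30 months in the oculomotor nucleus (horizontal axis) of the tested members of each of the 36 gene lists, with 1 grey point per gene and a red bar at the median. The class II median, 0.70, lies furthest from 0. Next are the medians of skeletal muscle at 0.20, microglia at 0.18, glucocorticoid responsive genes at 0.17 and complement at 0.16. The synaptic median is -0.09.

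Outside the immune lists, the named gene with the smallest p was Extl1, a glycosyltransferase of heparan sulphate synthesis. It had 172, 136 and 219 at 18 months and 302, 355 and 330 at 30 months, 1.90-fold (log2 0.93, 0.52 to 1.34, adjusted p = 0.45). The 30-month arrays all lay higher, and the change was 0.81 without both arrays that stand apart. Of the other genes among the 12 higher ones with the smallest p, Map3k1, a kinase upstream of JNK, had a change of 0.51, and its second probe set 0.44. Wnk2, a kinase of chloride cotransporters, had 0.44, and its second probe set 0.40. Stmp1, a mitochondrial microprotein, had 0.47, Ccdc66, a centrosomal protein, 0.68, Cplane1, a ciliary protein, 0.47, and Pbx3, a homeodomain factor, 0.28. Their adjusted p-values were between 0.698 and 0.976, so none passed. Ccdc66 and Wnk2 rested largely on the replicates that stand apart, since without them their changes were 0.23 each, and that of Cplane1 was 0.30.

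Among the 12 genes with lower signals, Igf2, Dennd6a and Polr1h had the smallest p and Entr1 the largest change. Igf2 encodes insulin-like growth factor 2, which the meninges and choroid plexus make in the adult brain. Its signals were 921, 1022 and 768 at 18 months and 534, 595 and 462 at 30 months. All 30-month arrays lay below all 18-month arrays, by 1.70-fold, with a log2 change of -0.77 (-1.15 to -0.38) and an adjusted p of 0.698. Dennd6a, a regulator of Rab14, had 441, 425 and 444 at 18 months and 311.5, 240 and 304 at 30 months (-0.62, adjusted p = 0.502). Polr1h, a subunit of RNA polymerase I, had 485, 521 and 532 at 18 months and 402, 358 and 332 at 30 months (-0.50, adjusted p = 0.503). Entr1, an endosomal protein, had 230, 273 and 256.5 at 18 months and 202, 141 and 90.3 at 30 months; its change of -0.88 became -0.32 without both arrays that stand apart.

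The rest of the 12 lower genes had changes smaller in size than those of Igf2, Dennd6a and Entr1, though not all smaller than that of Polr1h. Slc24a3, a sodium, potassium and calcium exchanger, had a change of -0.62, which was -0.98 without both arrays that stand apart, and a second probe set at -0.19. Wls, needed to secrete Wnt proteins, had -0.48, Ube2s, a ubiquitin-conjugating enzyme, -0.36, and Serinc3, a membrane protein, -0.33, or -0.22 without both arrays that stand apart. For 3 others a second probe set did not repeat the difference: Sh2b1, a signalling adaptor, had -0.46 and 0.05, Blcap -0.48 and 0.02, and Sirpa, the receptor that binds CD47, -0.36 and 0.11. Their adjusted p-values lay between 0.698 and 0.976.

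**Figure D3:**
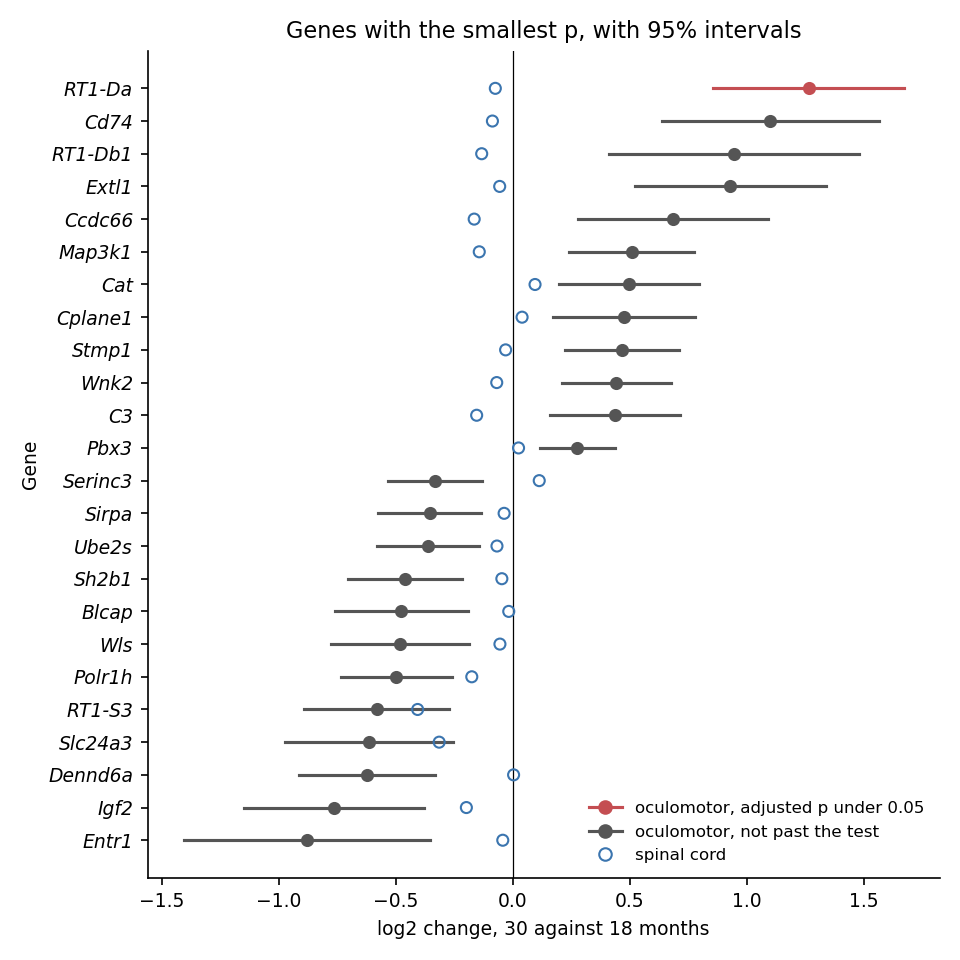
Log2 change from 18 to 30 months (horizontal axis) of the 12 higher and 12 lower genes with the smallest p among those whose oculomotor arrays do not overlap, with 95% intervals; open circles are the spinal cord. RT1-Da, in red, is the only gene past the adjusted threshold, at 1.26, while its spinal cord value is -0.08.

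The study's own threshold, as the design text gives it, asked for agreement in all pairings of arrays and an average change above 1.70. Without the probe-level difference calls, which were not used here, 8 probe sets met it (0.0844%), 5 higher (0.0527%) and 3 lower (0.0316%). The higher were RT1-Da, Cd74, RT1-Db1, Extl1 and Gli4, a zinc finger gene with 154, 136 and 141 at 18 months and 192, 264 and 298 at 30 months, whose change of 0.79 became 0.42 without both arrays that stand apart. The lower were Igf2, Entr1 and Ehd4, an endocytic ATPase with 206, 233 and 205 at 18 months and 152, 122 and 92.4 at 30 months. The other probe sets of Ehd4 gave changes of -0.01 and 0.02, so its difference rests on 1 probe set of 3, and that change of -0.84 became -0.49 without both arrays that stand apart.

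Igf2 also belongs to the list of genes of the membranes that surround the brain. Of 23 tested members of the extracellular matrix and meninges list, 19 had a negative change and the median was -0.10 (-0.15 to -0.068 on leaving out 1 array). An unadjusted p under 0.05 was reached by 3, Igf2 among them, all lower, in a background of 2.35% of all probe sets, and none passed after adjustment. Slc13a4, a sulphate transporter of the meninges, had 203, 254 and 250 at 18 months and 156, 188 and 147 at 30 months (-0.53, adjusted p = 0.976). Fmod, a collagen-binding proteoglycan, had 176, 144 and 195 at 18 months and 118, 139 and 111 at 30 months (-0.48, adjusted p = 0.976). Col1a1, a chain of fibrillar collagen, had 118, 73.7 and 131 at 18 months and 69.8, 99.5 and 59.3 at 30 months, with 1 array under the floor, and its second probe set had a change of -0.09.

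Markers of the choroid plexus, which also makes Igf2, were uneven. Ttr, its main secreted protein, had 1658, 194 and 601 at 18 months and 516.5, 129.5 and 137 at 30 months. The ages overlapped, and the change of -1.47 had an interval from -3.35 to 0.42 and was -0.16 without both arrays that stand apart. The other 3 tested members of the choroid plexus and ependyma list, Enpp2, Aqp1 and Folr1, had changes of -0.15, -0.07 and 0.02, or 0.12, -0.13 and -0.089 without both arrays that stand apart. The summed signal of that list was 3768 to 5847 at 18 months and 3299 to 4342 at 30 months. That of the meninges list was 18729 to 19568 at 18 months and 17155 to 18925 at 30 months, and the part of either in the Igf2 difference was not tested.

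Neuronal lists had small medians. Of 19 synaptic vesicle and release genes, 17 were negative with a median of -0.09, and 0 reached an unadjusted p under 0.05 in limma. Syn1, which tethers synaptic vesicles, had 3273, 3294 and 3074 at 18 months and 2930, 3053 and 2227 at 30 months, a change of -0.24 (adjusted p = 0.976), and its second probe set also gave -0.24. Without both arrays that stand apart Syn1 had -0.13. Amph and Rims1, of vesicle retrieval and release, had -0.32 and -0.30 and overlapped, and Amph had -0.19 without both arrays that stand apart. Of 12 GABA and glycine genes, 11 were negative with a median of -0.11 (-0.17 to -0.060 on leaving out 1 array). Glrb, the beta subunit of the glycine receptor, had 1335, 1432 and 1413 at 18 months and 1268, 1256 and 733 at 30 months. Replicate 3 was far below the others, and the change of -0.40 became -0.14 without both arrays that stand apart. Of 12 motor neuron and cholinergic genes 8 were positive with a median of 0.08, and of 11 midbrain and monoamine neuron genes 9 were negative with a median of -0.06; none passed.

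Peptide and calcium genes gave single differences. Penk, the precursor of enkephalins, had 2105, 2387 and 2624 at 18 months and 2034, 1934 and 1820 at 30 months (-0.29, adjusted p = 0.976), and Pcsk2, a protease that matures such precursors, had a change of -0.37, or -0.14 without both arrays that stand apart. The 16 neuropeptide genes were split evenly, 8 positive and 8 negative. Atp2b2, a plasma membrane calcium pump, had 1391, 1385 and 1325 at 18 months and 1415, 1926 and 1863 at 30 months, a change of 0.33 that became 0.05 without both arrays that stand apart. Its second probe set gave -0.10, and the list of 17 calcium genes had a median of 0.00.

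Glial and vascular lists had medians near that of all probe sets. Of 16 astrocyte markers 7 were positive with a median of -0.01 (-0.073 to 0.050 on leaving out 1 array). Gfap, the astrocyte intermediate filament, had 5589, 5641 and 6417 at 18 months and 6842, 5952 and 7690 at 30 months, a change of 0.21 (-0.06 to 0.48) with overlapping arrays. Aqp4, the water channel of astrocyte endfeet, had changes of 0.28, -0.17 and 0.05 by its 3 probe sets, the first 0.18 without both arrays that stand apart. Fgfr3 and Gjb6, of the same list, went the other way, with changes of -0.26 and -0.19, and neither passed. Of 13 myelin and oligodendrocyte markers 6 were positive with a median of -0.00; Mbp, myelin basic protein, had a change of 0.14 (-0.28 to 0.56), which became -0.044 without both arrays that stand apart, and Sox10, a factor of the lineage, had -0.24. Of 15 vascular genes 10 were negative with a median of -0.06 (-0.13 to 0.028 on leaving out 1 array). At an unadjusted p under 0.05 in limma, 1 was higher and 2 were lower, in backgrounds of 2.36% and 2.35%. Slco1a4 had a change of -0.24 without overlap, and its second probe set -0.01. Vwf, the clotting factor of endothelium, had 259, 247 and 268 at 18 months and 296, 356 and 412.5 at 30 months (0.45), and Esam, an endothelial adhesion protein, had 439, 507 and 443 against 378.5, 353 and 347 (-0.36); both had an adjusted p of 0.976. Without both arrays that stand apart the change of Vwf was 0.20.

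Antioxidant genes did not move as a group. Of 27 tested, 10 were positive with a median of -0.04 (-0.063 to 0.046 on leaving out 1 array). At an unadjusted p under 0.05, 1 was higher and 3 were lower, in backgrounds of 2.36% and 2.35%. Cat, the catalase that breaks down hydrogen peroxide, had 825, 776 and 829 at 18 months and 860, 1211 and 1431 at 30 months, a change of 0.50 that became 0.09 without both arrays that stand apart. Sod3, the extracellular superoxide dismutase, had 414, 471.5 and 379 at 18 months and 334.5, 248 and 363.5 at 30 months (-0.43). Gstm1, a glutathione transferase, had 1591, 1509 and 1521 at 18 months and 949, 1204 and 1181 at 30 months (-0.48); both had an adjusted p of 0.976. Of 44 oxidative phosphorylation genes 18 were positive with a median of -0.02 (-0.087 to 0.067 on leaving out 1 array). Of 20 ribosomal protein genes 18 were positive with a median of 0.09, and the median was -0.06 without 30-month replicate 3 and 0.24 without 30-month replicate 2.

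Whether the late change differed between the oculomotor nucleus and the cord was tested directly. No probe set passed. In limma 314 (3.31%) reached an unadjusted p under 0.05, and 156 of these (1.65% of those tested) were more positive in the oculomotor nucleus. RT1-Da had cord signals of 2867, 3539 and 2654 at 18 months and 2103, 2787 and 3927 at 30 months, which overlapped. Its late change was -0.08 in the cord, and the difference between the tissues was 1.34 (limma adjusted p = 1.00). Cd74 had cord signals of 4020, 5100 and 3162 at 18 months and 3299, 3182 and 5145 at 30 months, with a change of -0.09 and a difference of 1.19 between the tissues that did not pass. The class II list had a median late change of -0.09 in the cord. In the cord at 6 months RT1-Da had 1135, 1321 and 1401, all below the cord arrays of both later ages.

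Of other genes with the smallest p for this difference, Srebf1, which switches on lipid synthesis, had 0.32 in the oculomotor nucleus and -0.30 in the cord. Its second oculomotor probe set gave -0.08. Limk1, a kinase of actin turnover, had 0.06 in the oculomotor nucleus (0.13 without both arrays that stand apart) and 0.88 in the cord. Pianp and Dynll2, a dynein light chain, had oculomotor changes of -0.44 and -0.18, against cord changes of 0.32 and 0.54. The oculomotor change of Dynll2 was -0.029 without both arrays that stand apart, and its second, brighter probe set did not repeat the pattern, with 0.096 in the oculomotor nucleus and -0.0054 in the cord. None of these differences passed after adjustment.

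**Figure D4:**
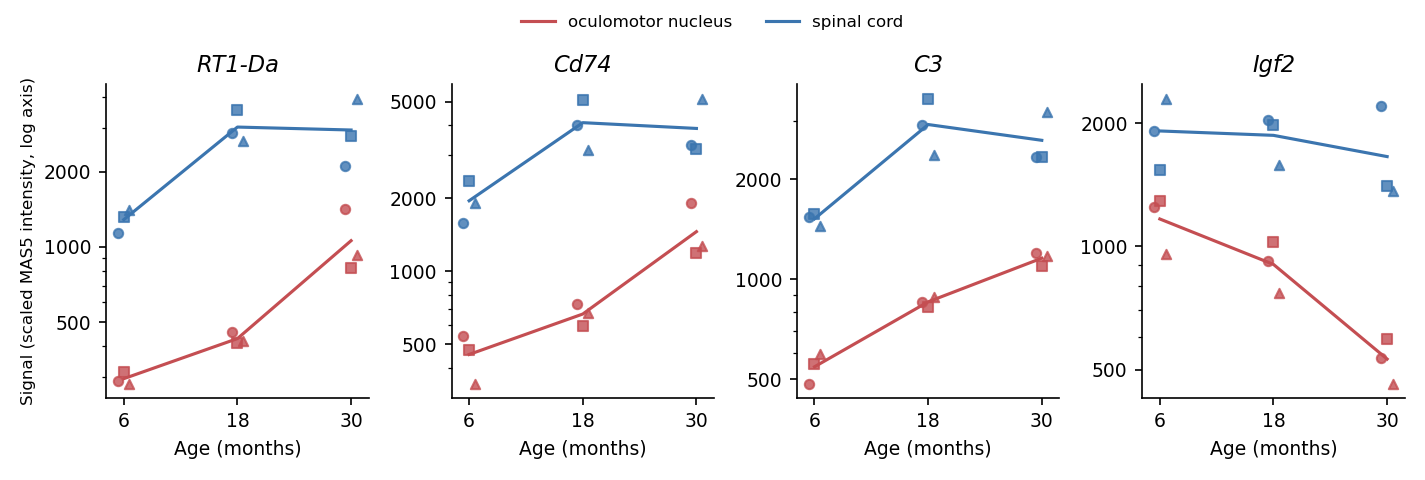
Signal (vertical log axis, scaled MAS5 intensity) by age in months of RT1-Da, Cd74, C3 and Igf2 in the oculomotor nucleus (red) and spinal cord (blue); points are arrays, with a shape per replicate, and lines join means of 3 arrays. For RT1-Da the 30-month oculomotor arrays, 823 to 1424, lie above those at 18 months and below all cord arrays at 18 and 30 months.

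The late step was also set against the early step, from 6 to 18 months, which shares the 18-month arrays. No probe set passed the test of late minus early change, while 251 (2.65%) reached an unadjusted p under 0.05 and 131 of these (1.38% of those tested) were positive. RT1-Da had 291, 315.5 and 283 at 6 months, so its early change was 0.53 and its late change 1.26, with a difference of 0.73 (limma adjusted p = 1.00). C3 had 486, 555.5 and 595.5 at 6 months, an early change of 0.65 against a late change of 0.44. Igf2 had 1251, 1290 and 959 at 6 months, an early change of -0.37 against a late change of -0.77. The genes with the smallest p for this difference had changes of opposite sign in the 2 steps. R3hdm2 had 233, 206.5 and 257 at 6 months, then 414, 424 and 337 on the 18-month arrays and 320, 257 and 245 on the 30-month arrays. Extl1 had 172, 237.5 and 236 at 6 months, so its 18-month arrays lay under both neighbours on average, and Stmp1 and Tm9sf3 had early changes of -0.34 and -0.54 and late changes of 0.47 and 0.37. Serinc3 and Sirpa had early changes of 0.33 and 0.34 and late changes of -0.33 and -0.36. A brighter probe set of Sirpa did not repeat the turn, with an early change of 0.14 and a late change of 0.11. A low or high 18-month group gives opposite signs in both steps, since both use the same arrays.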

How the data were processed

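RNA of each sample was hybridised to its own array. Per the labels and the series' design text, the authors summarised probes with Affymetrix Microarray Suite 5.0, and they deposited 1 linear intensity per probe set and array for 15923 probe sets, without detection calls. A single-channel biotin protocol is described although 2 dyes stand in the labels. The design text speaks of 4 replicates per group and the labels give 3, which were followed. Intensities were scaled to a common 2% trimmed mean, raised to a floor at the pooled 20th percentile (66.4), taken to log2, and kept where the mean exceeded the pooled 40th percentile (9482 of 15923, 57 controls left out first). limma 3.58.1 (R 4.3.3, eBayes with trend) estimated 6 group means from the 18 arrays, with 2-sided tests, Benjamini-Hochberg adjustment and a threshold of 0.05, and was tested on simulated data. The comparisons were oculomotor 30 against 18 months, its difference from the cord, and late minus early change. Platform annotation named 1 gene for 12789 probe sets, several for 312, and none was listed for 2822; 12754 were updated through Entrez identifiers. The number of arrays limits the precision, and the labels do not say which animals went into which pool.

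The 36 gene lists (804 members, 672 matched) and the tests were chosen with earlier results of these data known. For a gene with several probe sets, lists use the brightest on average. Named genes are the probe sets past the test without overlap, the 12 higher and 12 lower with the smallest p without overlap, up to 4 members of each list described, 15 marker and immune genes fixed by name, and the 3 genes with the smallest p in each direction of both differences. The genes past the 1.70-fold rule, and list members given as marker checks, were chosen after their values were seen. Alternatives were other scalings, floors and filters, other sets of arrays in the fit, other variance models, the replicate number as a block, each replicate left out in turn, and, added after seeing the data, leaving out both 30-month arrays that stand apart. The lists with no account of their own had median log2 changes between -0.08 and 0.20.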

Additional observations from a re-analysis of the deposited data

How the results depend on the processing

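RT1-Da was the call with quantile normalization, values as deposited, no floor, the stricter filter and array weights. The count of calls between 30 and 18 months fell from 1 to 0 with median centring, a pseudocount, no filter, a fit of only the oculomotor arrays or only the arrays compared, no mean-variance trend, and the replicate block; the smallest adjusted p in these was 0.0602, 0.0510, 0.0534, 0.0507, 0.311, 0.0816 and 0.0865. Leaving out 1 replicate gave 0 to 1 calls. The threshold of the design text gave 8. Replicate numbers did not pair the 18- and 30-month oculomotor arrays (same-number correlations 0.05, -0.10 and -0.01, 1 of 6 arrays closest to its own number). On the first principal component, replicate 3 scored 16.6 in the oculomotor nucleus at 30 months, and 13.8 and 14.7 in the cord at 18 and 30 months. In the other groups replicate 3 scored between -8.95 and -1.08. Replicate 1 of the cord at 6 months scored 12.1, so high scores were not confined to replicate 3. What the arrays with high scores share was not tested. The replicate block removed the single call, RT1-Da (limma adjusted p = 0.0865). For the difference between the tissues, 0 calls became 1 with no filter (a probe set with no gene name) and 1 with array weights (RT1-Da), and 0 to 5 on leaving out 1 replicate; the 5 came without cord 18 months replicate 3 and included Limk1, Retreg3 and Rtn4. Median centring also changed the split of probe sets at an unadjusted p under 0.05 from 156 positive of 314 to 108 of 321. Late minus early change gave 0 calls in every alternative run. The cause of these losses was not tested.

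The changes of some named genes, none past the test, turned sign. Without both 30-month arrays that stand apart these were Ifi27 (0.020), Ugt8 (0.14), Gfra1 (-0.016), Rbfox3 (0.067), Gabrg1 (0.14), Slc32a1 (0.0090), Slc8a1 (0.18), Enpp2 (0.12), Folr1 (-0.089), Slc18a3 (0.15) and Mbp (-0.044). Leaving out 1 array gave ranges that crossed 0 for Slc18a2 (-0.33 to 0.0025), Slc6a9 (-0.31 to 0.026), Slc32a1 (-0.39 to 0.049), Slc8a1 (-0.49 to 0.020), Aqp1 (-0.24 to 0.11), Folr1 (-0.15 to 0.14), Slc18a3 (-0.21 to 0.045), Mbp (-0.037 to 0.23) and Limk1 (-0.013 to 0.17). Quantile normalization turned Mbp (-0.020) and array weights Slc18a3 (0.017).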
